A study of Mus musculus with 20 samples.

Results

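Collagen chain genes encode the polypeptides that wind in triplets into collagen molecules, and they were read here in mouse kidney RNA. Every gene whose symbol is Col, a type number, the letter a and a chain number was taken, with a mean of at least 0.5 CPM (read counts scaled to library size) in the table it was read from. The rule used no difference between groups. It gave 35 of 26608 gene rows in the table of LOY and Control kidneys and 36 of 30809 in the table of ABT263 and control-compound kidneys, with 34 genes in both and 37 in either. The numbers of matching symbols before the level filter were 43 and 44. Just inside the limit of the LOY table lay Col9a3 at 0.526 CPM and just outside it Col25a1 at 0.398 CPM. In the ABT263 table these were Col11a1 at 0.573 CPM and Col6a4 at 0.488 CPM.

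Per the series' design text, donor marrow was transplanted into old mice so that their blood system was of Control or LOY type, where LOY means that blood-forming cells had lost their Y chromosome. In the LOY table, 6 kidneys came from the Control group, with animal numbers 3, 11, 12, 13, 16 and 17, and 6 from the LOY group, with 5, 8, 9, 10, 14 and 18. The ABT263 table held kidneys of the LOY group alone, from 4 animals given a control compound (6, 8, 9 and 10) and 4 given ABT263 (15, 16, 17 and 18), a senolytic also called navitoclax that inhibits BCL-2 family proteins. The transplant was common to all groups, LOY concerned the blood system, and the kidney itself was the host's own. Because RNA came from whole kidney tissue, it may include blood-derived cells of the donor, whose share was not measured. The sources used here give no age in numbers, strain, dose or method of Y chromosome removal. Each library is labelled as a separate animal. Some numbers recur in both tables as separate samples. Numbers 16 and 17 mark Control animals in the LOY table and LOY animals in the ABT263 table, so these are different animals. For the recurring numbers 8, 9, 10 and 18 the labels do not say whether they mark the same animal.

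Collagens differ in what they build. Type I and III chains assemble into the fibrils of the interstitium, which thicken in kidney scarring, and type V chains sit inside those fibrils and set their width. Type IV chains form the sheet-like network of basement membranes, and chains 1 and 2 are found in nearly all of them. Chains 3, 4 and 5, made in the glomerulus by podocytes, form the mature network of the glomerular filter that is defective in Alport syndrome. Type VI forms beaded filaments, types XV and XVIII sit at the edge of basement membranes and carry heparan or chondroitin sulfate, and FACIT collagens bind to the surface of fibrils.

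The start regions of a few chains are shown because they bear on the members described most fully: Col1a2 and Col3a1 are partners in interstitial fibrils, and the 6 type IV genes lie in head-to-head pairs. They are from RefSeq (GRCm38.p6), 5′ to 3′. Capitals mark 3 motifs, searched on both strands. CCAAT is the CCAAT box, bound by the factor NF-Y. The GC box bound by Sp1 factors was searched as GGGCGG. The TATA motif was searched as TATAAA. The first sequence lies before the RefSeq start of Col1a2 (base 4505618; GRCm38.p6 chr6:4505370-4505492, plus strand) and holds 2 GC boxes. GENCODE's longer model of the gene starts further upstream, so this stretch lies within that model, outside its exons. The second is a CCAAT box before the same RefSeq start with its flanks (chr6:4505497-4505526, plus strand), which overlaps an exon of the GENCODE model. The third lies before the Col3a1 start (chr1:45311288-45311537, plus strand), with a TATA motif 117 bases before it. Col4a1, on the minus strand, and Col4a2, on the plus strand, overlap by 22 bases at their starts. The fourth sequence surrounds a CCAAT box just outside this overlap, before the Col4a2 start and within a Col4a1 exon (chr8:11312761-11312790, plus strand). A GC box also lies there, in the stretch chr8:11312745-11312774. The fourth sequence begins inside that GC box, which is therefore not marked in it. The fifth is the whole stretch of 71 bases between the starts of Col4a4 (minus strand) and Col4a3 (plus strand), chr1:82586850-82586920, which holds none of the 3 motifs.
Col1a2 upstream: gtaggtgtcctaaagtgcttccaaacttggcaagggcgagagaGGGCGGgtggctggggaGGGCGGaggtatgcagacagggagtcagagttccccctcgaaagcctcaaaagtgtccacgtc
Col1a2 site: aaaagaatggaaCCAATttaagaagccccg
Col3a1 upstream: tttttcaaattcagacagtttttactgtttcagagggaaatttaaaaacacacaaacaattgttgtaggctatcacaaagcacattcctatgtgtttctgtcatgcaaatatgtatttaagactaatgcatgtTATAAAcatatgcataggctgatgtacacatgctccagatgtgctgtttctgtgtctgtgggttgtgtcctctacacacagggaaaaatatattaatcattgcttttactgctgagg
Col4a1 and Col4a2 site: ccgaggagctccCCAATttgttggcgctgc
Col4a4 and Col4a3 interval: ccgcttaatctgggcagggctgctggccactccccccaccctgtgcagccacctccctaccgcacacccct
Of 32851 RefSeq promoter windows (the 250 bases before a start), 33.9% held a CCAAT box, 32.7% a GC box and 12.4% a TATA motif. Of 38 such windows of 35 collagen genes, the numbers were 13, 22 and 5. The third type IV pair, Col4a6 and Col4a5 on chromosome X, starts 1308 bases apart. A match is a run of letters and shows no binding.

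Total gene counts per kidney lay between 13332563 and 19386408 in the LOY table and between 14587809 and 20791633 in the ABT263 table. LOY animal 8 stood apart from the other 11 kidneys of its table. Here each gene was taken as its log2 deviation from its mean over the kidneys of the table. The median deviation of genes of high GC share exceeded that of genes of low GC share by 0.70 in this kidney (-0.20 to 0.15 in the others). For long against short transcripts it lay 0.99 lower (a value of -0.99 against -0.26 to 0.28). Control-compound animal 6 and ABT263 animal 16 stood apart in the other table, with a spread of log2 deviations over genes of 0.498 and 0.402 against 0.298 to 0.332. In the LOY table this spread was 0.875 in LOY animal 8, 0.541 in LOY animal 10 and 0.33 to 0.45 in the others. Animal number also moved with group, since 5 of 6 Control kidneys but only 2 of 6 LOY kidneys carry numbers above 10. The labels do not say what a number stands for, and number and group cannot be told apart in full. In the ABT263 table all control-compound animals have numbers of 10 or lower and all ABT263 animals 15 or higher, so there number and treatment cannot be told apart at all.

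Per kilobase of transcript, the kidney's main collagen transcripts were those of basement membranes. In the LOY table Col18a1 averaged 56.5 CPM per kb and Col4a1 47.9, followed by Col4a2 (35.2), Col4a3 (32.2), Col27a1 (25.4) and Col4a4 (21.6). The interstitial chains Col3a1, Col1a2 and Col1a1 followed at 15.7, 13.7 and 13.0 CPM per kb, and Col4a5 at 9.37. Col1a2 and Col1a1 changed places between kidneys, with per-kilobase ratios of Col1a1 to Col1a2 from 0.587 to 2.38. In the ABT263 table Col4a1 averaged 57.5 CPM per kb, Col18a1 52.5, Col4a2 43.2, Col4a3 35.4, Col4a4 32.6, Col1a2 22.1, Col3a1 19.9, Col1a1 12.8 and Col27a1 10.1. The lowest member was the type VI chain Col6a5 in the LOY table (0.111 CPM per kb) and the fibrillar chain Col11a1 in the ABT263 table (0.0748). The tables were fitted apart, so levels are not compared between them.

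The first comparison asks how collagen transcripts of the kidney differ with a LOY blood system, which the series title ties to renal disease. Mean Col1a1 was 50.3 ± 20.6 CPM in Control and 104 ± 36 CPM in LOY kidneys, and mean Col3a1 59.5 ± 24.1 and 115 ± 38.9 CPM (SD, 6 kidneys a group). Type IV chains 1 and 2 had positive and chains 3, 4 and 5 negative log2 fold changes, those of chains 3 and 5 within 1 SE of 0. Type IV chain 6 was positive (0.27 ± 0.27). No collagen chain gene passed an edgeR adjusted p of 0.05, adjusted over all genes. Of 33 members that met the test's count minimum, 25 had a positive log2 fold change and 8 a negative one, with a median of 0.27; over all 14978 genes tested 52.3% were positive and the median was 0.02. At an unadjusted edgeR p under 0.05 stood 11 of the 33 (33.3%), against 22.8% of all genes. For comparison, 1.18% of all genes passed the adjusted threshold. In 0 of 33 members did the LOY kidneys lie wholly above or below the Control kidneys, which 1.56% and 0.461% of all genes did. The members Col9a3 (0.066 to 0.961 CPM in Control and 0.264 to 1.49 CPM in LOY kidneys) and Col17a1 (0.155 to 1.92 and 0.497 to 1.41 CPM) did not meet the count minimum. DESeq2 called 3 members (Col1a1, Col3a1 and Col6a2) and 5.37% of all genes, and voom with sample quality weights 8 members and 7.19% of all genes. Without Control animal 3 edgeR called 7 (Col1a1, Col3a1, Col4a1, Col6a2, Col6a3, Col8a1 and Col18a1) and 4.01% of all genes, and without any 1 of the other 11 kidneys 0. Among animals numbered above 10 it called 5 (Col1a1, Col1a2, Col3a1, Col4a1 and Col15a1) and 2.89% of all genes, with 4 of 9 fibrillar chains positive. The median over members was 0.12 with animal number as a term (24 of 33 positive) and 0.12 without LOY animals 8 and 10 (22 of 33 positive). In bulk tissue, more cells of a type and more RNA per cell cannot be told apart.

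**Figure D1:**
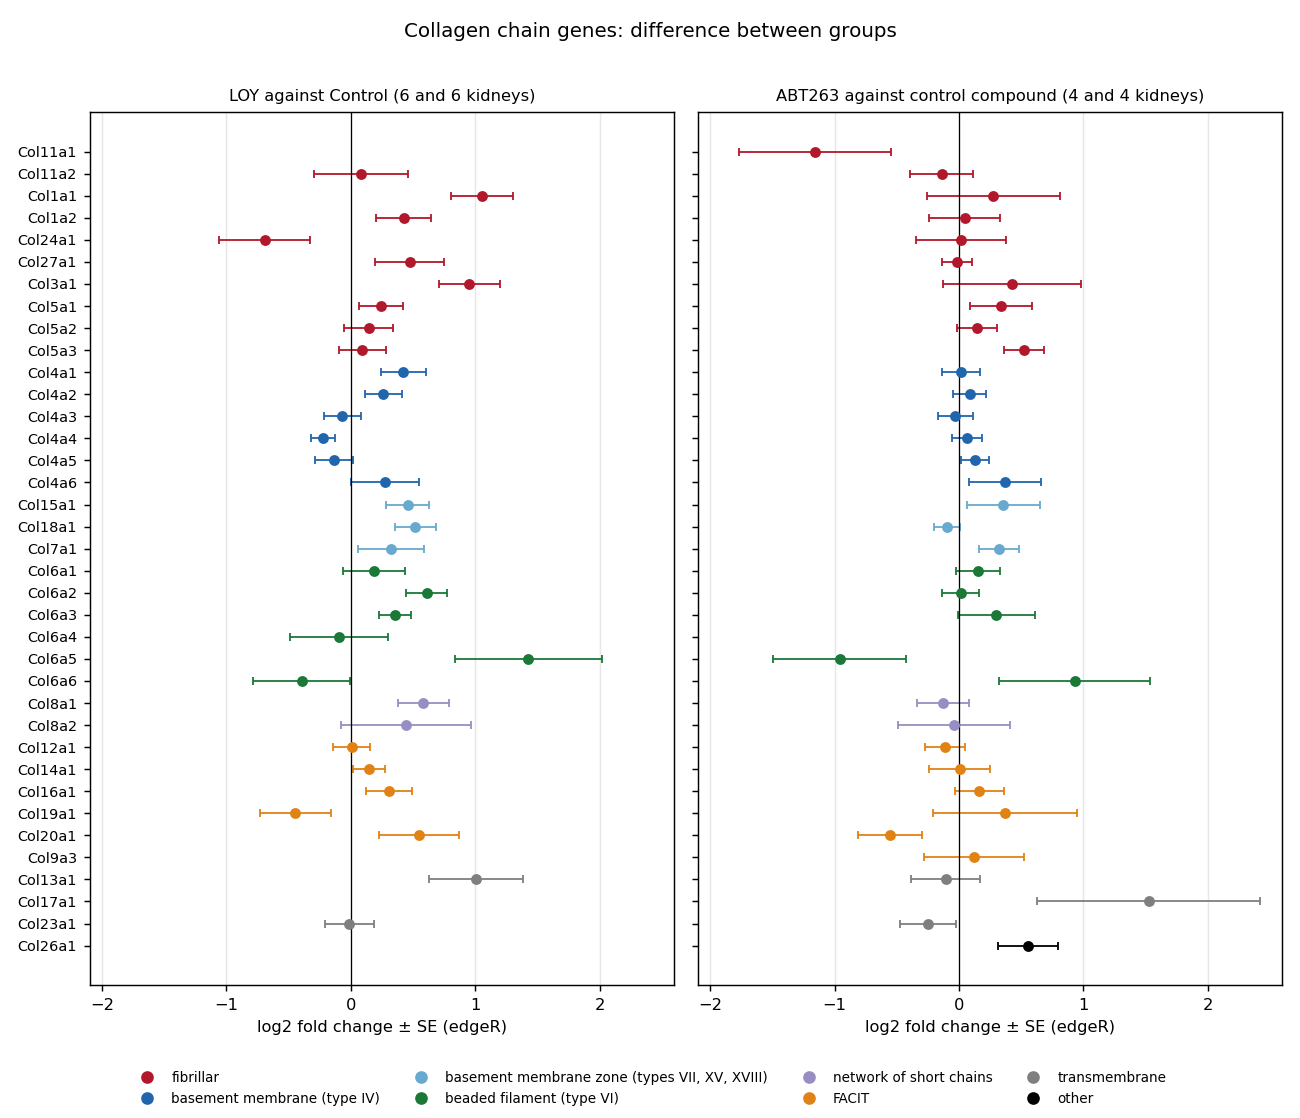
Log2 fold change (x axis, points) with its standard error (bars) from edgeR for every tested collagen chain gene (y axis), coloured by class. LOY against Control is on the left and ABT263 against control compound on the right. On the left 25 of 33 points lie right of 0, with Col1a1 at 1.05 and Col4a4 at -0.23; on the right Col1a1 and Col3a1 have standard errors of 0.53 and 0.55.

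Among fibrillar chains, 8 of 9 had positive values, with a median of 0.24. Col1a1 (chromosome 11, 94936224 to 94953042, GRCm38), which encodes the chain present in 2 copies in type I collagen, stood at 90.9, 51.2, 33.6, 40.8, 42.4 and 43.1 CPM in Control animals 3, 11, 12, 13, 16 and 17. In LOY animals 5, 8, 9, 10, 14 and 18 it stood at 93.8, 107, 73.0, 173, 77.1 and 103 CPM. All 6 LOY kidneys lay above 5 of the 6 Control kidneys, and Control animal 3 alone lay among them. The log2 fold change was 1.05 ± 0.25 (SE), with an edgeR adjusted p of 0.0508 (0.00119 to 0.180 over the alternatives). Among animals numbered above 10, the 2 LOY kidneys (77.1 and 103 CPM) lay above all 5 Control kidneys (33.6 to 51.2 CPM), and the log2 fold change there was 1.10 with an edgeR adjusted p of 0.00119. With animal number above 10 as a further term it was 0.80 (edgeR adjusted p = 0.180).

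Col3a1 (chromosome 1, 45311538 to 45349706), the homotrimeric chain laid down beside type I in the interstitium, gave nearly the same picture. It stood at 106, 61.9, 38.7, 52.8, 48.2 and 49.0 CPM in the Control kidneys and at 112, 117, 75.3, 187, 87.1 and 111 CPM in the LOY kidneys, in the same order of animals. Again Control animal 3 was the one Control kidney within the LOY range. Its log2 fold change was 0.95 ± 0.25 (edgeR adjusted p = 0.0689, from 0.00361 to 0.274 over the alternatives). The ratio of Col1a1 to Col3a1 CPM ran only from 0.773 to 0.969 over all 12 kidneys. Of all genes tested, Col3a1 had the log2 CPM pattern most like that of Col1a1 (Pearson r = 0.994 over 12 kidneys). It was followed by Cx3cl1 (0.973), Cmtm3 (0.966), Rhob (0.965) and Phf11 (0.957). Within each kidney these genes share library and depth.

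Col1a2 (chromosome 6, 4504814 to 4541544), the second chain of type I collagen, did not keep to Col1a1. Its lowest, median and highest values were 50.2, 61.0 and 78.7 CPM in Control and 40.6, 90.5 and 115 CPM in LOY kidneys, a log2 fold change of 0.42 ± 0.22 (edgeR adjusted p = 0.250). The lowest of all 12 values was that of LOY animal 8, whose Col1a1 was the second highest. The ratio of Col1a1 to Col1a2 CPM was 2.63 in that kidney, 0.811 to 1.51 in the other LOY kidneys, 1.25 in Control animal 3 and 0.651 to 0.845 in the other 5 Control kidneys. Without animal 8 the log2 fold change of Col1a2 was 0.56, and among animals above 10 it was 0.76 (edgeR adjusted p = 0.0227, 0.0227 to 0.637 over the alternatives).

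**Figure D2:**
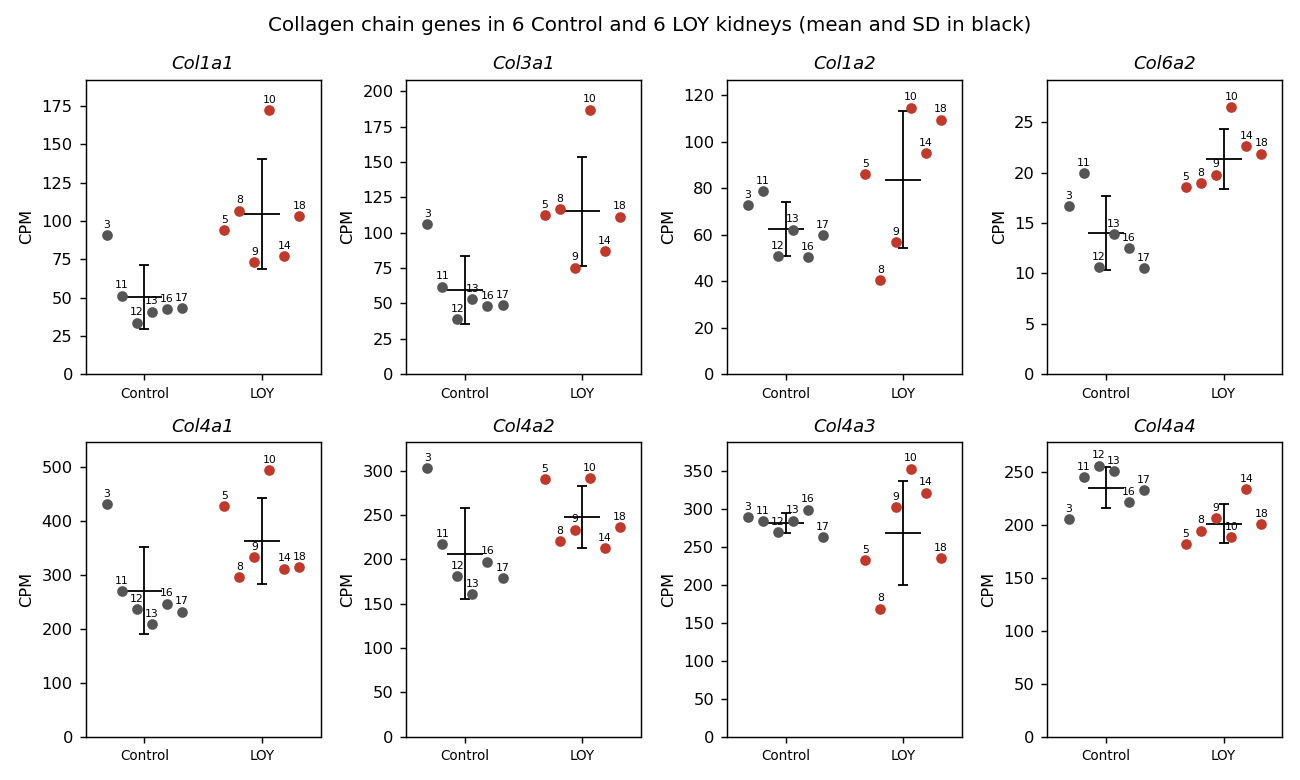
CPM (y axis, from 0) of 8 collagen chain genes in each Control (grey) and LOY (red) kidney, labelled by animal number, with the group mean and SD in black (n = 6 each). Col1a1 and Col3a1 have 1 Control kidney, animal 3, within the LOY range; for Col4a4 all LOY kidneys but animal 14 lie at or under 206 CPM.

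The type V chains, which regulate fibril width, had smaller differences. Col5a1 had lowest, median and highest values of 13.4, 16.0 and 25.7 CPM in Control and 14.9, 21.6 and 26.8 CPM in LOY kidneys (log2 fold change 0.24 ± 0.18). Col5a2, the neighbour of Col3a1 on chromosome 1, had 27.8, 35.0 and 45.0 CPM against 28.5, 33.4 and 65.2 CPM (0.14 ± 0.19), the highest value being that of LOY animal 9; without that kidney its log2 fold change was -0.06. The groups overlapped for both chains, and 5 of 6 LOY kidneys lay above the Control median for Col5a1 but 2 of 6 for Col5a2. Of the other fibrillar chains, Col27a1 had a log2 fold change of 0.47 with 420 CPM in LOY animal 8 and 325 CPM in animal 10 against 122 to 204 CPM in Control kidneys and 131 to 207 CPM in the other 4 LOY kidneys. Col5a3 (0.09) and Col11a2 (0.08) were near 0. Col24a1, at a mean of 1.43 CPM, was the one fibrillar chain with a negative value (-0.69 ± 0.37, edgeR adjusted p = 0.260).

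The type IV genes gave 3 positive and 3 negative values, with a median of 0.10, and none passed. Col4a1 (chromosome 8, 11198423 to 11312826) had lowest, median and highest values of 209, 242 and 432 CPM in Control and 296, 324 and 495 CPM in LOY kidneys. All LOY kidneys lay above all Control kidneys but animal 3. Its log2 fold change was 0.42 ± 0.18 (edgeR adjusted p = 0.199, from 0.0325 to 0.837 over the alternatives). Its head-to-head partner Col4a2 (chromosome 8, 11312805 to 11449287) had 161, 189 and 303 CPM against 212, 235 and 291 CPM (0.26 ± 0.15, edgeR adjusted p = 0.296). Their ratio, Col4a2 to Col4a1, lay between 0.701 and 0.806 in Control and between 0.589 and 0.752 in LOY kidneys.

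The chains of the mature glomerular network had negative values. Col4a4 (chromosome 1, 82448423 to 82586849) stood at 205, 245, 256, 251, 221 and 233 CPM in Control animals 3, 11, 12, 13, 16 and 17, and at 182, 195, 206, 189, 234 and 201 CPM in LOY animals 5, 8, 9, 10, 14 and 18. All 6 LOY kidneys lay below the Control median, and the ranges overlapped, with Control animals 3, 16 and 17 inside the LOY range and LOY animals 9 and 14 inside the Control range. The log2 fold change was -0.23 ± 0.10 (edgeR unadjusted p = 0.0319, adjusted p = 0.191, with adjusted p from 0.101 to 0.995 over the alternatives). With offsets that follow the GC share and transcript length of genes in each library, an alternative chosen after seeing the data, it was -0.00. Under these offsets 5 of 6 type IV chains were positive. Col4a3 (chromosome 1, 82586921 to 82722059), which starts 71 bases from Col4a4, had 263, 284 and 299 CPM in Control and 169, 269 and 353 CPM in LOY kidneys (-0.07 ± 0.15, edgeR adjusted p = 0.801). The Control values of Col4a3 were narrow and the LOY values spread to both sides of them; the lowest was that of animal 8, and without it the log2 fold change was 0.04. The ratio of Col4a4 to Col4a3 ran from 0.534 (LOY animal 10) to 1.15 (LOY animal 8). Col4a5, their X-linked partner, had 51.3, 65.1 and 73.8 CPM against 43.8, 54.8 and 83.1 CPM (-0.14 ± 0.15), and Col4a6 had a log2 fold change of 0.27 ± 0.27 at a mean of 9.01 CPM. Of podocyte markers, Nphs1 (nephrin) averaged 35.2 ± 11.0 CPM in Control and 39.2 ± 10.6 CPM in LOY kidneys (SD). Podxl, Wt1 and Synpo had log2 fold changes of -0.04, 0.28 and 0.23, and none of these markers passed with edgeR; their part in the type IV values was not tested.

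The 3 chains of the basement membrane zone all had positive values (median 0.46), and 0 passed. Col18a1, whose C-terminal piece is endostatin, had lowest, median and highest values of 200, 248 and 377 CPM in Control and 302, 357 and 468 CPM in LOY kidneys (0.52 ± 0.17, edgeR adjusted p = 0.125). Col15a1, its relative around capillaries and tubules, had 31.6, 39.0 and 57.3 CPM against 39.5, 54.9 and 76.3 CPM (0.46 ± 0.17, edgeR adjusted p = 0.164). In both genes all 6 LOY kidneys lay above the Control median and overlapped the Control range. Col7a1, which forms anchoring fibrils, had 0.32 ± 0.27.

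Of 6 type VI chains 4 had positive values (median 0.27), and 0 passed. Col6a2 stood at 16.7, 19.9, 10.6, 13.9, 12.5 and 10.6 CPM in Control animals 3, 11, 12, 13, 16 and 17, and at 18.6, 18.9, 19.8, 26.5, 22.7 and 21.9 CPM in LOY animals 5, 8, 9, 10, 14 and 18. Control animal 11 was here the only kidney within the LOY range. The log2 fold change was 0.61 ± 0.16 (edgeR adjusted p = 0.0820, 0.0226 to 0.303 over the alternatives). Col6a1, which lies near Col6a2 on chromosome 10 and joins it in the same molecule, had 12.1, 13.5 and 25.3 CPM against 7.77, 19.6 and 22.9 CPM (0.18 ± 0.25), its lowest value being that of LOY animal 8. Col6a3, the longest of the main chains, had 26.4, 29 and 42.2 CPM against 34.5, 39.8 and 47.0 CPM (0.35 ± 0.13, edgeR adjusted p = 0.153). The minor chains Col6a4, Col6a5 and Col6a6, each under a mean of 2 CPM, had values of -0.09, 1.43 and -0.40.

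Of the other classes, Col8a1, a short-chain collagen of vessel walls, had lowest, median and highest values of 4.58, 5.91 and 10.5 CPM in Control and 7.09, 9.41 and 11.5 CPM in LOY kidneys (0.58 ± 0.21, edgeR adjusted p = 0.147). Its partner Col8a2 had 0.44 ± 0.52. Of the FACIT chains, Col12a1 had 0.01, Col14a1 0.15 and Col16a1 0.31, and the less abundant Col20a1 and Col19a1 had 0.55 ± 0.32 and -0.45 ± 0.29. Col20a1 ranged from 3.71 to 7.47 CPM in Control and from 3.50 to 14.7 CPM in LOY kidneys, highest in animal 8. The membrane-spanning Col13a1 had 0.458, 0.715 and 1.01 CPM against 0.728, 1.31 and 2.70 CPM (1.01 ± 0.38, edgeR adjusted p = 0.164), and Col23a1 had -0.01.

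The fibrillar and type IV chains were also compared class by class in each kidney. A class value here is the median over its members of the log2 deviation from the mean of all kidneys of the table. For fibrillar chains it ran from -0.37 to 0.40 in Control and from -0.34 to 0.49 in LOY kidneys. For type IV chains it ran from -0.35 to 0.20 in Control and from -0.24 to 0.43 in LOY kidneys. The classes differed in sign in some kidneys and not in others. LOY animals 5 and 8 had fibrillar values of 0.31 and 0.44 with type IV values of -0.24 and -0.10, and LOY animal 14 had -0.34 with 0.07, while Control animal 3 and LOY animal 10 were positive for both. Median log2 fold changes were 0.24 for fibrillar and 0.10 for type IV chains, a difference of 0.15. With type I and III chains alone it was 0.86. With types VII, XV and XVIII counted as basement membrane it was -0.03, and among animals numbered above 10 it was -0.19. Per kilobase, Col4a1 exceeded Col4a3 by a mean factor of 1.24 in Control and 1.81 in LOY kidneys (0.950 to 1.93 and 1.25 to 2.38, n = 6 each).

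**Figure D3:**
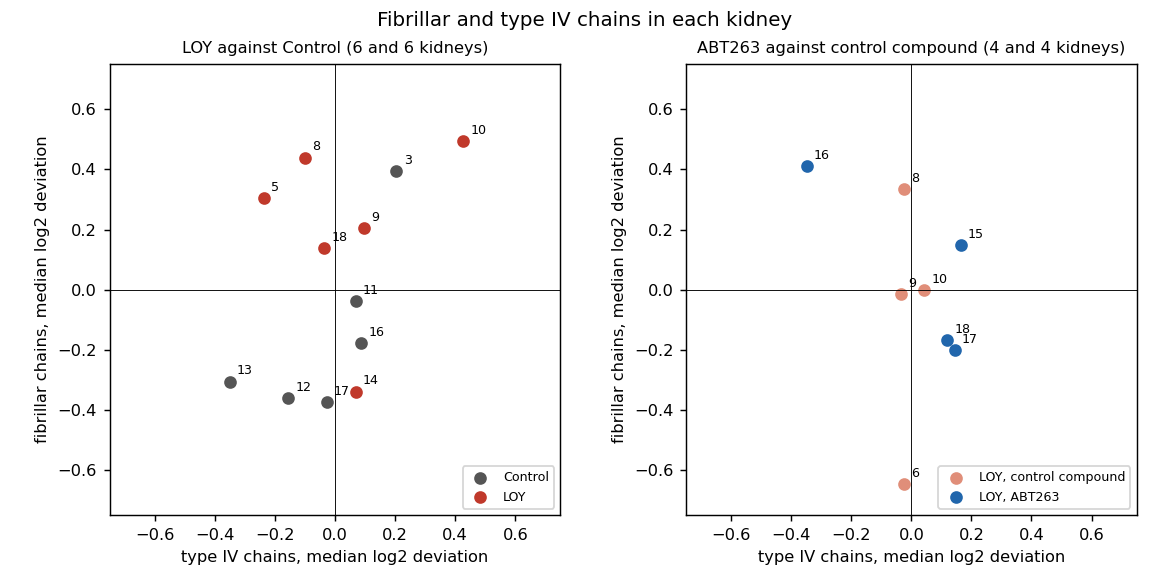
Median log2 deviation of the fibrillar chains (y axis) against that of the type IV chains (x axis), 1 point per kidney labelled by animal number, in the LOY table (left) and the ABT263 table (right). Control animal 3 lies with the LOY kidneys on the y axis and LOY animal 14 with the Control kidneys; on the right, ABT263 animal 16 combines the highest fibrillar value with the lowest type IV value.

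**Figure D4:**
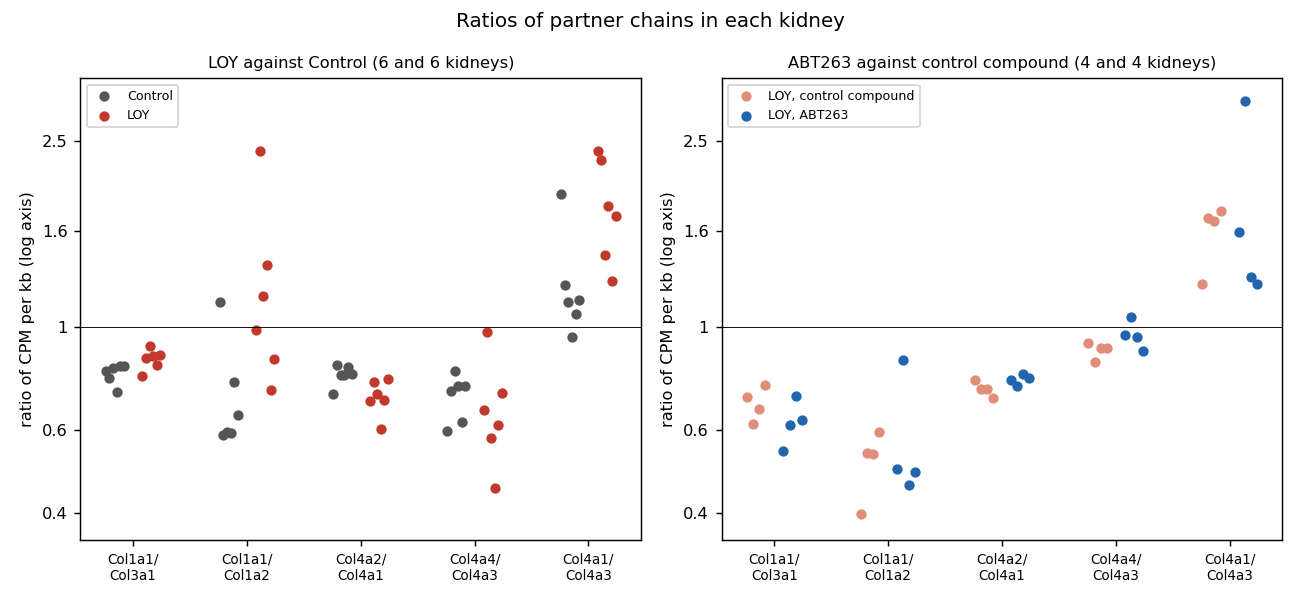
Ratios between partner chains in CPM per kb (y axis, log axis) for each kidney, by group, in both tables. Col1a1 to Col3a1 and Col4a2 to Col4a1 stayed in narrow bands, while Col1a1 to Col1a2 reached 2.38 in LOY animal 8 and Col4a1 to Col4a3 reached 3.05 in ABT263 animal 16.

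The genes that modify, cut, crosslink and bind collagen were read from the same fits. With edgeR 0 of their members passed in the LOY comparison, and 19 of 58 had an unadjusted p under 0.05, beside 22.8% of all genes. Of 21 tested hydroxylases, glycosyltransferases and chaperones 13 had positive values (median 0.14). Serpinh1, the collagen chaperone HSP47, had the smallest p, with 58.6 ± 9.77 CPM in Control and 85.5 ± 14.6 CPM in the LOY group (SD over 6 kidneys; log2 fold change 0.54 ± 0.13, edgeR adjusted p = 0.0580). It was followed by the prolyl 4-hydroxylase subunit P4ha2 (0.56 ± 0.17, edgeR adjusted p = 0.104) and the collagen galactosyltransferase Colgalt2 (-0.47 ± 0.14, edgeR adjusted p = 0.105). Among crosslinking oxidases 5 of 6 were positive (median 0.46): Loxl2 had 0.65 ± 0.21, Loxl1 0.50 ± 0.19, Loxl3 0.47 ± 0.19 and Lox 0.45 ± 0.28, the last at 4.76 ± 1.19 against 6.48 ± 2.35 CPM. The propeptidases and their enhancers had a median of 0.04 over 7 genes, led by Pcolce (0.37 ± 0.14), Adamts2 (0.46 ± 0.18) and Bmp1 (0.24 ± 0.10). Of 9 collagen receptors 7 were positive (median 0.12), with the endocytic receptor Mrc2 first (0.55 ± 0.16, edgeR adjusted p = 0.104), ahead of Lair1 (0.34) and Itga10 (0.61). Laminins and other basement membrane partners had a median of 0.07, with 10 of 15 positive, with Lama3 (-0.34) and Lamb2 (0.31) at the smallest p.

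Markers of the cells that could carry these transcripts moved with the groups in part. Fibroblast markers summed to 137 to 203 CPM in Control and 173 to 258 CPM in LOY kidneys, with 6 of 7 positive, a median of 0.47 and 0 past the threshold. These sums were highest in Control animal 3 and LOY animal 10, the kidneys of highest Col1a1 and Col3a1 in their groups. That was not particular to fibroblast markers. The same kidneys also had the highest sums of their groups for podocyte (604 and 689 CPM), adipose (374 and 278 CPM) and urothelium markers (76.2 and 87.4 CPM). Myofibroblast and mural markers summed to 141 to 268 against 168 to 296 CPM (5 of 6 positive, 0 passed), highest in Control animal 3 and LOY animal 8. Macrophage markers summed to 175 to 276 against 307 to 390 CPM without overlap, and 2 of the 4 tested rose (C1qa by 1.17 ± 0.24 and Lyz2 by 1.21 ± 0.15, with edgeR adjusted p of 0.0343 and 0.0146). C1qb had 0.95 ± 0.22 (edgeR adjusted p = 0.0510). Csf1r was level, with means of 104 CPM in Control and 107 CPM in LOY kidneys (0.05 ± 0.11), so the list did not move as a whole. Proximal tubule markers summed to 8837 to 11720 against 4303 to 9138 CPM (5 of 5 negative, 0 passed), lowest in LOY animal 10, whose Col1a1 and Col3a1 were highest. Of the cartilage and bone list only Sox9 was tested, and it rose (1.72 ± 0.35, edgeR adjusted p = 0.0343). The other members did not meet the count minimum, so this is the value of 1 gene and does not show cartilage or bone cells. The list summed to at most 3.23 CPM in Control and to 3.70 to 18.7 CPM in LOY kidneys. Adipose markers summed to 374 CPM in Control animal 3, against 34.8 to 70.8 CPM in the other Control kidneys and 35.4 to 278 CPM in LOY kidneys. Urothelium markers summed to 10.1 to 76.2 CPM in Control, highest in animal 3, and 28.0 to 87.4 CPM in LOY kidneys. Lists for endothelium, thick ascending limb, collecting duct and adrenal cortex had 0 members past the threshold, and skeletal muscle markers stayed at or under 0.962 CPM. The part of any of these in the collagen values was not tested.

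The second comparison asks how these transcripts differ in LOY kidneys after a senolytic. The log2 fold changes of Col1a1 and Col3a1 (0.28 and 0.42) were smaller than their standard errors (0.53 and 0.55), and those of the type IV chains lay between -0.03 and 0.37. With edgeR 0 of 36 members passed the adjusted threshold, as did 0.0% of all 16956 genes tested; DESeq2 and voom called 0 members too, and 42 and 7 genes in all (0.232% and 0.0413%). At an unadjusted edgeR p under 0.05 stood 2 members (5.56%), against 5.91% of all genes. Of the 36, 24 had positive values (median 0.08), beside 49.4% of all genes (median -0.00). In 1 member the ABT263 kidneys lay wholly above the control-compound kidneys, which 2.04% of all genes did, and in 0 members wholly below, which 2.25% did. Without control-compound animal 6 and ABT263 animal 16, a choice made after seeing the data, 13 of 35 were positive (median -0.06), and edgeR called 388 genes (2.26%), among them 1 member, Col4a6. Without animal 6 alone 18 of 36 were positive (median 0.00099), as were 18 of 36 with the GC and length offsets (median 0.0011).

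Col1a1 stood at 32.5, 85.0, 65.0 and 92.1 CPM in control-compound animals 6, 8, 9 and 10, and at 61.7, 175, 49.7 and 45.8 CPM in ABT263 animals 15, 16, 17 and 18. Among ABT263 kidneys animal 16 stood highest, the other 3 lay within the control-compound range, and animal 6 was lowest of all 8. The log2 fold change was 0.28 ± 0.53 (edgeR adjusted p = 0.960), and -0.39 without animal 16. In Col3a1 and Col1a2 as well, animal 16 was highest and animal 6 lowest. Col3a1 stood at 43.1, 129, 91.6 and 115 CPM against 107, 267, 65.6 and 68.0 CPM (0.42 ± 0.55, and -0.24 without animal 16). Col1a2 stood at 73.8, 143, 110 and 140 CPM against 112, 186, 98.1 and 84.4 CPM (0.04 ± 0.29, and -0.24 without animal 16). The genes most like Col1a1 in log2 CPM here were Col1a2 and Col3a1 (Pearson r of 0.983 each over 8 kidneys, as a description), ahead of Nagpa, Triobp (0.979) and Tmem176a (0.977).

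**Figure D5:**
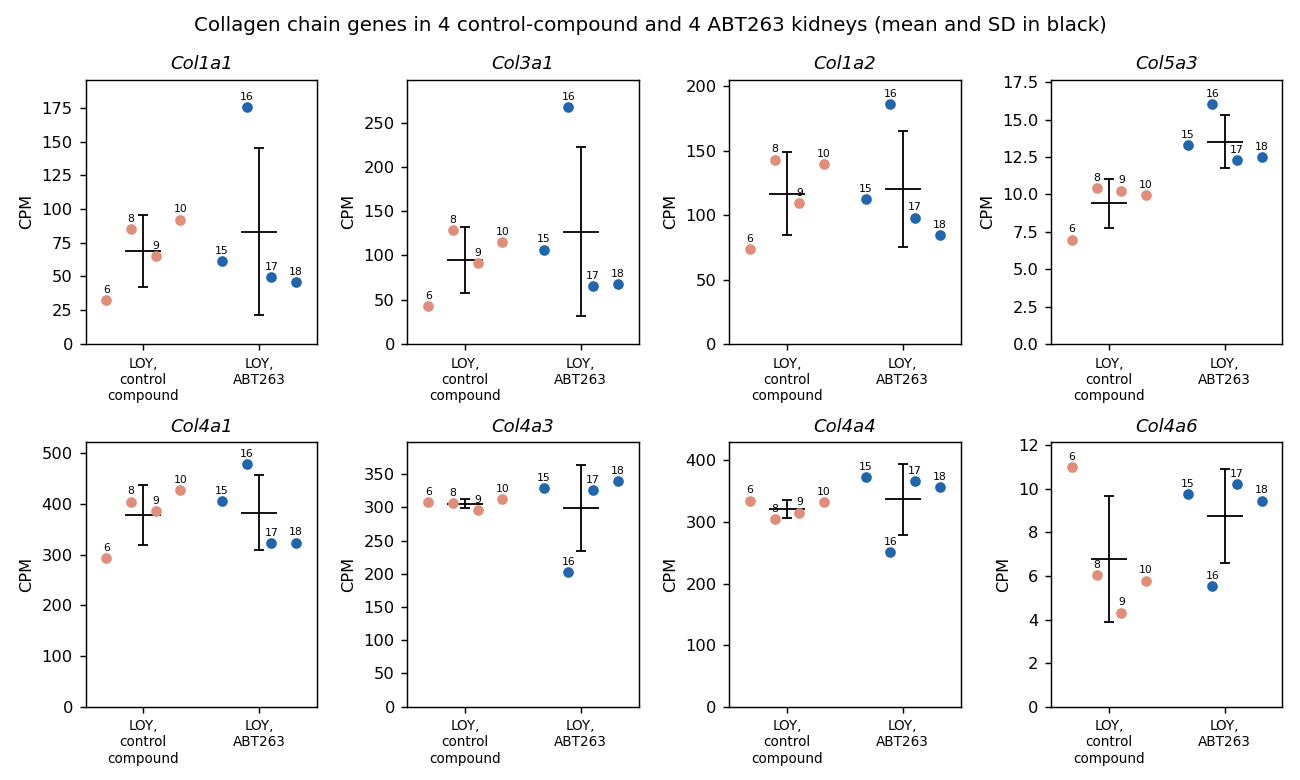
CPM (y axis, from 0) of 8 collagen chain genes in each LOY kidney given the control compound (pink) or ABT263 (blue), labelled by animal number, with the group mean and SD in black (n = 4 each). ABT263 animal 16 is highest for Col1a1, Col3a1, Col1a2 and Col4a1 and lowest for Col4a3 and Col4a4; Col5a3 is the gene whose groups do not overlap.

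Col5a3, a minor type V chain (chromosome 9, 20770050 to 20815067), had the smallest p of the 36. It stood at 6.98, 10.4, 10.3 and 9.97 CPM in control-compound animals 6, 8, 9 and 10, and at 13.3, 16.1, 12.3 and 12.5 CPM in ABT263 animals 15 to 18. The groups did not overlap. The log2 fold change was 0.52 ± 0.16 (edgeR unadjusted p = 0.00811, adjusted p = 0.662, 0.201 to 0.999 over the alternatives), and it was 0.31 without animals 6 and 16. The other type V chains were Col5a1 at 13.5, 23.3, 21.9 and 20.9 against 24.1, 38.5, 18.9 and 19.1 CPM (0.34 ± 0.25) and Col5a2 at 28.6, 42.9, 50.6 and 44.8 against 46.8, 53.5, 44.8 and 39.6 CPM (0.15 ± 0.16). In both, the lowest kidney was control-compound animal 6 and the highest ABT263 animal 16. Col11a1, a chain of the type XI fibrils of cartilage, had 0.176 to 1.14 against 0.116 to 0.725 CPM (-1.16 ± 0.61, edgeR adjusted p = 0.846). Col24a1 (0.01), Col27a1 (-0.01) and Col11a2 (-0.14) made up the rest.

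Of type IV chains 5 of 6 had positive values, with a median of 0.08, and 0 passed. Col4a1 stood at 293, 404, 386 and 428 CPM against 406, 478, 323 and 324 CPM (0.02 ± 0.15), and Col4a2 at 220, 290, 277 and 293 CPM against 304, 348, 249 and 245 CPM (0.09 ± 0.13). Their ratio ran from 0.686 to 0.772 over the 8 kidneys. Col4a3 stood at 308, 306, 296 and 312 CPM against 329, 203, 326 and 339 CPM (-0.03 ± 0.14, and 0.12 without animal 16). Col4a4 stood at 335, 304, 315 and 332 CPM against 373, 251, 366 and 357 CPM (0.07 ± 0.12), and Col4a5 at 56.3, 56.4, 57.2 and 59.7 against 68.2, 47.9, 70.7 and 64.6 CPM (0.13 ± 0.11). For all 3 glomerular chains, ABT263 animals 15, 17 and 18 lay above all 4 control-compound kidneys and animal 16 below all of them. Col4a6 had 11.0, 6.03, 4.32 and 5.78 CPM against 9.76, 5.55, 10.2 and 9.45 CPM (0.37 ± 0.29), and without animals 6 and 16 it was 0.86 (edgeR adjusted p = 0.0153, from 0.0153 to 0.999 over the alternatives). For this gene animal 6 was the highest control-compound kidney and animal 16 the lowest ABT263 kidney. Leaving out both was therefore bound to widen the difference, and that adjusted p adds no support to it.

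Among the remaining classes, Col17a1, the hemidesmosome collagen of epithelia, had 0.475 to 0.748 CPM with the control compound and 0.791, 5.37, 0.259 and 0.345 CPM in ABT263 animals 15 to 18 (1.53 ± 0.90, and -0.35 without animal 16). Col26a1 had 3.23, 1.85, 1.86 and 2.69 against 3.76, 3.06, 3.73 and 3.59 CPM (0.55 ± 0.24, edgeR adjusted p = 0.827) and Col20a1 4.93, 3.66, 4.02 and 2.39 against 2.37, 3.01 and 2.74 CPM in animals 15 to 17 and a lower value in animal 18 (-0.56 ± 0.26). Both overlapped by a single kidney of the control-compound group. Col7a1 had 5.74 to 6.87 against 6.56 to 9.30 CPM (0.32 ± 0.16), Col15a1 21.95 to 57.1 against 44.6 to 73.7 CPM (0.36 ± 0.29) and Col18a1 265 to 333 against 252 to 314 CPM (-0.10 ± 0.11). In these genes the groups overlapped. The type VI chains had a median of 0.15. Col6a1 stood at 19.2, 23.6, 32.1 and 28.2 CPM in control-compound animals 6, 8, 9 and 10 and at 29.1, 34.2, 30.02 and 21.3 CPM in ABT263 animals 15 to 18 (0.15 ± 0.18). Col6a2 stood at 11.8, 16.4, 15.3 and 17.6 CPM against 15.8, 17.6, 15.0 and 13.3 CPM (0.01 ± 0.15). Col6a3 stood at 12.6, 34.1, 31.7 and 30.8 CPM against 32.1, 45.4, 33.1 and 23.9 CPM (0.30 ± 0.31). All 3 main chains were lowest in control-compound animal 6 and highest in ABT263 animal 16, which for Col6a2 was level with control-compound animal 10. The minor chains Col6a5 and Col6a6 had -0.96 and 0.93. Col8a1 had -0.13 ± 0.21, Col8a2 -0.04, Col13a1 -0.11 and Col23a1 -0.25, and the FACIT chains Col9a3, Col12a1, Col14a1, Col16a1 and Col19a1 lay between -0.11 and 0.37.

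The fibrillar and type IV medians in this table, 0.10 and 0.08, differed by 0.02, and by -0.24 without animals 6 and 16. By kidney, fibrillar class values were -0.65, 0.34, -0.01 and -0.00 in control-compound animals 6, 8, 9 and 10 and 0.15, 0.41, -0.20 and -0.17 in ABT263 animals 15 to 18. Type IV class values were between -0.03 and 0.04 with the control compound and at 0.16, -0.35, 0.14 and 0.12 with ABT263. Animals 6 and 16 held the lowest and the highest fibrillar value, and animal 16 the lowest type IV value. In the collagen machinery 0 genes passed with edgeR and 1 of 58 had an unadjusted p under 0.05, beside 5.91% of all genes: Serpinh1 had -0.22 ± 0.21 and Lox -0.40 ± 0.28, and medians of the lists lay between 0.02 and 0.19. The highest of these belonged to the basement membrane partners, of which 14 of 15 were positive, led by the perlecan gene Hspg2 (143 ± 6.07 and 184 ± 39.4 CPM, SD over 4 kidneys a group; 0.36 ± 0.14, edgeR adjusted p = 0.770), Lamc1 (0.24 ± 0.11) and Lama4 (0.49 ± 0.23). The smallest p in the other lists belonged to P3h2 (0.19 ± 0.09), Adamts14 (0.42 ± 0.26), Lox and Itga10 (-0.38).

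Markers of other cells in the ABT263 table had 0 members past the threshold in 13 lists. Fibroblast markers summed to 137 to 207 CPM with the control compound, lowest in animal 6, and 156 to 187 CPM with ABT263, lowest in animal 16, where Col1a1 was highest. Macrophage markers summed to 302 to 528 against 277 to 331 CPM and proximal tubule markers to 7043 to 8443 against 5854 to 8958 CPM, lowest in animal 16. The podocyte markers Nphs1, Podxl, Synpo and Wt1 had log2 fold changes of -0.03, -0.14, -0.19 and -0.50. Cartilage and bone markers, of which 2 of 4 had a row here and 1 was tested, summed to 13.9 CPM in animal 16 against 1.66 to 9.97 CPM in the others. Myofibroblast and mural markers summed to 197 to 256 against 180 to 213 CPM (4 of 6 negative), and among them Acta2 did not overlap, with 49.4 to 69.1 against 37.7 to 45.9 CPM (-0.45 ± 0.11, edgeR unadjusted p = 0.00192, adjusted p = 0.657). Urothelium markers summed to 60.8 CPM in control-compound animal 6, 13.2 to 18.3 CPM in the rest of its group and at most 40.8 CPM with ABT263. Adipose markers summed to 46.3 to 152 CPM with the control compound and to 367, 41.1, 91.9 and 350 CPM in ABT263 animals 15 to 18. Of 4 tested, 4 were positive (median 1.27) and 0 passed. The part of these in the collagen values was not tested.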

How the data were processed

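Per the labels' protocols, total RNA of kidney tissue was purified with QIAzol and RNeasy kits and read on an Illumina NovaSeq X. The authors deposited 2 tables of whole-number read counts per gene, with no normalization, and the submitters' processing notes name the build mm10. The sources used here name no aligner, counter or annotation and do not say whether strand was used, so reads of overlapping genes cannot be told apart. Rows that name no gene held 0.223% to 0.401% of counts in the LOY table and were left out.

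Each table was tested alone with edgeR 4.0.16 in R 4.3.3 (quasi-likelihood, robust, TMM scaling, genes kept by filterByExpr at a count of 10 and a total of 15, group as the one term), with Benjamini-Hochberg adjustment over all genes at 0.05. Fold changes are log2 values from these fits, with SE. Positive means higher in LOY or in ABT263 kidneys. Alternatives used DESeq2 1.42.0, limma 3.58.1 (voom), other scalings, filters and sets of kidneys. Lengths and coordinates are from GENCODE M21 (GRCm38), using the longest coding transcript. The p-values measure the spread between animals, with 1 library each. Counting error alone limits low genes, and totals of 13332563 to 20791633 counts make 1 count worth under 0.1 CPM.

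The members, gene lists and tests were chosen with earlier results of these data known. Named are the main fibrillar, type IV, VI, XV and XVIII chains in both tables, the 5 members of smallest p, the smallest p of each class, and up to 3 genes of each machinery list with Serpinh1 and Lox. On simulated counts for the LOY table (14978 genes), edgeR found 26% of genes changed 1.5-fold, 50% of those changed 2-fold, 90% at 4-fold and 94% at 8-fold. For the ABT263 table (16956 genes) it found, in the same order, 16%, 60%, 94% and 88%. For the LOY table, false calls made up 9.09% of simulated calls with edgeR, 19.9% with DESeq2 and 7.09% with voom. For the ABT263 table these shares were 4.44%, 17.4% and 4.38%. The simulation drew each gene independently, so no simulated kidney stood apart over many genes as some real kidneys did. These rates therefore need not hold for the real counts.

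Some marker and list genes are not reported here.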

Additional observations from a re-analysis of the deposited data

Results flagged for a closer look

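In 13 of 84 groups of kidneys, 1 kidney lay further from its group than Dixon's 95% limit allows; chance flags about 1 in 20 groups, and collagen genes share kidneys, so these are not separate events. Control animal 3 stood highest for Col1a1 (90.9 CPM, next 51.2), Col3a1 (106 CPM, next 61.9) and Col4a1 (432 CPM, next 270 CPM). LOY animal 10 stood highest for Col1a1 (173 CPM, next 107) and Col3a1 (187 CPM, next 117). LOY animal 9 stood highest for Col5a2 (65.2 CPM, next 41.2).

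In the ABT263 group, animal 16 was highest for Col17a1 (5.37 CPM, next 0.791) and Col1a1 (175 CPM, next 61.7). It was lowest for Col4a3 (203 CPM, next 326), Col4a4 (251 CPM, next 357) and Col4a6 (5.55 CPM, next 9.45). Control-compound animal 6 was lowest for Col5a3 (6.98 CPM, next 9.97) and Col6a3 (12.6 CPM, next 30.8).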

How the results depend on the processing

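No paired analysis was possible because the groups compared share no animal number. The offsets for GC share and length, and leaving out control-compound animal 6 with ABT263 animal 16, were chosen after seeing the data; the causes of the changes below were not tested.

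LOY against Control, all genes: edgeR called 176, against 105 by library totals alone, 825 with DESeq2, 1077 with voom, 549 at an adjusted p of 0.1, 451 among animals above 10, 29 without LOY animals 8 and 10, and 0 with animal number as a term (1194 at an unadjusted p under 0.05). Leaving out 1 kidney gave 0 (Control 16 or 17) to 607 (Control 3); it also gave 3, 2 and 9 without Control 11, 12 and 13, 1 without LOY 10, 96 and 116 without LOY 9 and 14, and 296 without LOY 18. Collagen chain genes called were 0, against 3 with DESeq2, 8 with voom, 1 with offsets, 5 among animals above 10 and 3 at an adjusted p of 0.1, and 0 to 7 on leaving out 1 kidney. Fibrillar minus type IV was 0.15, against -0.19 above 10, 0.86 with types I and III only and -0.032 with basement membrane widened; leaving out 1 kidney gave 0.042 to 0.24. Signs changed for Col20a1 (-0.37 above 10, -0.10 with the number term), Col5a2 (-0.25 above 10; leaving out 1 kidney, -0.065 to 0.22), Col4a3 (0.11 with offsets; leaving out 1 kidney, -0.17 to 0.038) and Col4a5 (0.012 with offsets). Of 432 values of 18 named genes, 398 kept sign and side of the threshold, 27 passed it and 7 changed sign.

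ABT263 against control compound, all genes: edgeR called 0, against 42 with DESeq2, 7 with voom and 388 without animals 6 and 16; leaving out 1 kidney gave 0 to 9, the latter without control-compound animal 6, with 3 without ABT263 16 and 1 without ABT263 18. Collagen chain genes called were 0, and 1 without animals 6 and 16. Fibrillar minus type IV was 0.02, against -0.15 with voom, -0.24 without animals 6 and 16 and -0.062 as a mean; leaving out 1 kidney gave -0.16 to 0.13. Signs changed with voom for Col17a1 (-0.036), Col1a1 (-0.38), Col1a2 (-0.27), Col3a1 (-0.26), Col4a1 (-0.14), Col4a2 (-0.046), Col4a3 (0.055) and Col6a2 (-0.10). With offsets they changed for Col1a2 (-0.020), Col4a1 (-0.065), Col4a4 (-0.0078) and Col6a2 (-0.043). Without animals 6 and 16 they changed for Col15a1 (-0.020), Col1a1 (-0.62), Col1a2 (-0.41), Col3a1 (-0.48), Col4a1 (-0.21), Col4a2 (-0.11), Col4a3 (0.12), Col5a1 (-0.089), Col5a2 (-0.072), Col6a1 (-0.055), Col6a2 (-0.16) and Col6a3 (-0.11). Leaving out 1 kidney gave Col17a1 -0.35 to 1.89, Col1a1 -0.39 to 0.48, Col1a2 -0.24 to 0.18, Col3a1 -0.24 to 0.64, Col4a1 -0.10 to 0.092, Col4a2 -0.019 to 0.15, Col4a3 -0.10 to 0.12, Col6a2 -0.093 to 0.086 and Col8a1 -0.28 to 0.013. Of 429 values of 24 named genes, 390 kept sign and side, 1 passed and 38 changed sign.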
